A study of Mus musculus with 9 samples.

Results

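Spdef, Foxa3, Creb3l1, Agr2, Gcnt3, Fcgbp and Tff1 are genes that control or carry out mucus secretion in goblet cells. They were taken by symbol from a table of messenger RNA read counts in mouse conjunctiva, the mucous membrane of the eyelids and the white of the eye. All 7 were among the 20603 genes of the table, and 6 had enough counts to be tested (Tff1 did not). The study had 9 libraries, each from the pooled conjunctiva of 3 mice on a C57BL/6j background, in 3 groups of 3 pools. The unchallenged controls and the challenged controls were Vegfr3 fl/fl littermates without Cre. The challenged knockouts, Vegfr3iLECko, were Vegfr3 fl/fl mice that also carried prox1CreERT2, a tamoxifen-inducible Cre under Prox1 control, used to delete Vegfr3 in lymphatic endothelial cells. Every group, the controls included, had 5 intraperitoneal tamoxifen doses of 75 mg/kg in week 5. Immunization followed in week 6 (250 µg ovalbumin, 0.3 µg pertussis toxin, 5 mg aluminium hydroxide). From 14 days later, challenge meant 250 µg ovalbumin dropped on the right eye each day for 28 days, with saline on the other eye. The design had no unchallenged knockouts, and the labels do not say which animals or eyes gave the unchallenged pools. Below, challenge stands for challenged minus unchallenged controls, and genotype for challenged knockouts minus challenged controls, both on the log2 scale.

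Goblet cells are mucus-secreting cells scattered in the conjunctival epithelium, and their gel-forming mucin Muc5ac is part of the tear film. SPDEF, an ETS-family transcription factor, and FOXA3, a forkhead factor, drive goblet cell differentiation in mucosal epithelia. CREB3L1 is a transcription factor held in the endoplasmic reticulum membrane that is released by proteolysis and raises genes of the secretory pathway. AGR2 is a disulfide isomerase that helps mucins fold, GCNT3 branches their O-linked sugars, and FCGBP and TFF1 are secreted with mucus into the gel. Airway epithelium gains goblet cells under type 2 cytokines, and in allergic conjunctivitis goblet cells discharge their mucus.

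The start regions of 4 of the 7 genes could be shown, from RefSeq (GRCm38.p6, an older build than the mm39 named for the counts). Of the 5 among 6 tested genes that were highest in the same pool, challenged control 2, the windows cover Spdef, Foxa3 and Agr2. Creb3l1 and Gcnt3 were also highest there but had no window at hand. Fcgbp was highest in challenged knockout 1. The windows are a description, and a shared control of these genes was not tested. Each window runs from 250 bases before to 50 bases after the annotated start, 5′ to 3′ on the gene's strand. The windows are chr17:27728902-27729201 (minus strand) for Spdef, chr7:19023490-19023789 (minus strand) for Foxa3, chr12:35992675-35992974 (plus strand) for Agr2 and chr7:28070986-28071285 (plus strand) for Fcgbp. Capitals mark matches, on either strand, to ACGTG (the core read by CREB3L1-type factors), TGACGTGG (a longer form that contains it), TGTTTAC (a forkhead motif) and TATTTAC (a forkhead variant, added after the sequences were seen).
Spdef: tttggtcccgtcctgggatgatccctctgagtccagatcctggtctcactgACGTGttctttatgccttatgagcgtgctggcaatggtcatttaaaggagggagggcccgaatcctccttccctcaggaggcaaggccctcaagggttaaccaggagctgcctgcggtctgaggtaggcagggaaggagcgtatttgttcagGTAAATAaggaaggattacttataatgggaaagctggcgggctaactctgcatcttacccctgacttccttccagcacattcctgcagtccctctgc
Foxa3: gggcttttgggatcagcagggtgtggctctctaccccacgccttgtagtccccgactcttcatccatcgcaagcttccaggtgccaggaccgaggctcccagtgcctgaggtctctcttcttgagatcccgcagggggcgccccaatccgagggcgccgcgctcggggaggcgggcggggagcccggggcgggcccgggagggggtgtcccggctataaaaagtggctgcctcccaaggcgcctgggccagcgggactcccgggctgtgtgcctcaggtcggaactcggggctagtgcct
Agr2: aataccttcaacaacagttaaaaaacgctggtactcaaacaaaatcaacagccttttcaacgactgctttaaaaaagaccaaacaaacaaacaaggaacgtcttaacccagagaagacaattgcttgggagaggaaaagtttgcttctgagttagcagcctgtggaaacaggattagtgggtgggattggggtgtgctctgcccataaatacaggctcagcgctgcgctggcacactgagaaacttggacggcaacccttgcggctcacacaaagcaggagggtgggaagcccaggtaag
Fcgbp: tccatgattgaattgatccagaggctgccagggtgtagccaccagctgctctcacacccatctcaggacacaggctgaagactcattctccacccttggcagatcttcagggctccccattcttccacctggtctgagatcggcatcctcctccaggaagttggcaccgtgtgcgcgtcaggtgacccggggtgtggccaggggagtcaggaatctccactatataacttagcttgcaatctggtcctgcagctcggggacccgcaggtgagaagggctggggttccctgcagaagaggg

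The Spdef window held 1 match to ACGTG and 1 to TATTTAC (as its reverse complement), and the windows of Foxa3, Agr2 and Fcgbp held no match to any of the 4 motifs. Only these exact strings were searched, so other forms of a forkhead motif were not counted in any window. Among 32851 windows of this length in the RefSeq table, 19.6% held ACGTG, 0.676% TGACGTGG, 3.65% TGTTTAC and 3.04% TATTTAC. ETS factors read cores of GGAA or GGAT, which are too common to mark. GGAA matched 7 times in the Spdef window, 4 times in Agr2 and Fcgbp and 2 times in Foxa3, against a median of 3 over all windows. GGAT matched 5 times in Spdef, 4 in Foxa3 and 2 in both Agr2 and Fcgbp, against a median of 2. The base composition of the windows ranged from 47.3% GC in Agr2 to 69% in Foxa3, with 53.3% in Spdef and 58.3% in Fcgbp.

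Libraries held 16490050 to 24746836 counts. Of 15613 genes tested, 10 passed an adjusted p of 0.05 with challenge, 0 with genotype and 0 between challenged knockouts and unchallenged controls by edgeR (at an unadjusted p under 0.05, 1939, 1325 and 452; by DESeq2, 750, 231 and 14). With the replicate number as a block the edgeR counts were 267, 22 and 0. Flt4, the deleted Vegfr3 gene, was at 19.6 ± 6.70 CPM in unchallenged controls, 17.9 ± 3.95 in challenged controls and 7.78 ± 4.49 in challenged knockouts (SD, n = 3 pools each), with knockout pool 1 at 13.0 and challenged control 1 at 13.4. All 12 markers fixed for conjunctival and simple epithelium were detected, with a summed level of 8970 to 17447 CPM. Of 6 goblet cell markers 5 were in the table, but nearly all of their sum came from Muc5ac. The trefoil gene Tff2 had 10 counts over the 9 libraries and Agr3 had 12. The 3 deepest libraries were unchallenged control 2, challenged control 2 and challenged knockout 1, with 22161800 to 24746836 counts against at most 19743395 in the other 6.

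Per kilobase of annotated exon, which allows genes to be compared, Agr2 was the most abundant of the 7, and the transcription factors differed widely. The mean over the 9 pools was 54.7 CPM per kb for Agr2, 10.6 for Fcgbp, 10.2 for Creb3l1 and 2.81 for Spdef. It was 0.466 CPM per kb for Foxa3, 0.274 for Gcnt3 and 0.0545 for Tff1. Agr2 was above Fcgbp in 9 of 9 pools and Creb3l1 above Spdef in 9 of 9. Spdef was above Foxa3, and Foxa3 above Gcnt3, in 9 of 9 pools. Fcgbp was above Creb3l1 in 7 of 9 pools, and the difference between these neighbours was not tested. It was below Creb3l1 in unchallenged control 2 and challenged control 2, both among the 3 deepest libraries. Tff1 lay below Gcnt3 in 8 of 9 pools, on 7 counts in all.

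Spdef, the goblet cell master regulator, varied more between pools of the same treatment than between treatments. Its level was 7.33, 1.26 and 5.35 CPM (counts per 1000000, scaled with TMM) in unchallenged control pools 1 to 3. It was 8.78, 12.4 and 2.57 CPM in challenged control pools 1 to 3, and 10.1, 3.42 and 7.09 CPM in challenged knockout pools 1 to 3. The highest pool, challenged control 2, was 9.83-fold above the lowest, unchallenged control 2, and every group held pools with high and with low Spdef. In whole tissue, fewer goblet cells in a pool and less RNA in each of them cannot be told apart. Averaged by group, in the same order, Spdef stood at 4.65 ± 3.09, 7.92 ± 4.98 and 6.86 ± 3.34 CPM (SD over 3 pools). Neither difference passed the edgeR test: challenge gave 0.78 ± 0.69 (SE; adjusted p = 0.761), with a 95% interval of -0.77 to 2.32. Genotype gave -0.20 ± 0.68 (SE; adjusted p = 0.941), and its interval of -1.73 to 1.32 spans a 2-fold change in both directions.

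Foxa3 was rare, with 7 to 50 counts in a library. It was at 0.890, 0.459 and 0.787 CPM in the unchallenged control pools, 0.557, 2.24 and 0.399 in the challenged control pools and 1.63, 0.826 and 0.743 in the challenged knockout pools. Challenged control 2 and challenged knockout 1 were the only pools above 1 CPM, and both belong to the 3 deepest libraries. The third deep library, unchallenged control 2, was among the lowest for Foxa3. By group, Foxa3 averaged 0.712 ± 0.225, 1.07 ± 1.02 and 1.07 ± 0.493 CPM (SD over 3 pools). Challenge gave 0.61 ± 0.69 (SE; adjusted p = 0.836). Genotype gave a difference close to 0 (-0.0043 ± 0.67, SE; adjusted p = 0.999), with an interval of -1.51 to 1.50.

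Creb3l1, the membrane-bound secretory pathway factor, had a pattern of its own. Its level was 16.3, 44.4 and 26.0 CPM in the unchallenged control pools, 14.0, 50.2 and 14.1 in the challenged control pools and 37.1, 17.3 and 18.8 in the challenged knockout pools. In each group 1 pool stood above the others, and those were the 3 deepest libraries: they held 37.1 to 50.2 CPM, against 14.0 to 26.0 CPM in the other 6. Of all genes tested, 2.25% were higher in all 3 deep libraries than in all 6 others and 1.85% lower. The labels name no batch, and whether depth has a part in the Creb3l1 level was not tested. By group, Creb3l1 averaged 28.9 ± 14.3, 26.1 ± 20.9 and 24.4 ± 11.0 CPM (SD over 3 pools). Challenge gave -0.15 ± 0.55 (SE; adjusted p = 0.966) and genotype -0.10 ± 0.55 (SE; adjusted p = 0.968). With a block for the deep libraries, an alternative chosen after the data were seen, challenge gave -0.31 ± 0.24 (SE; adjusted p = 0.674). Genotype then gave 0.08 ± 0.24 (SE; adjusted p = 0.931), with the sign turned.

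**Figure D1:**
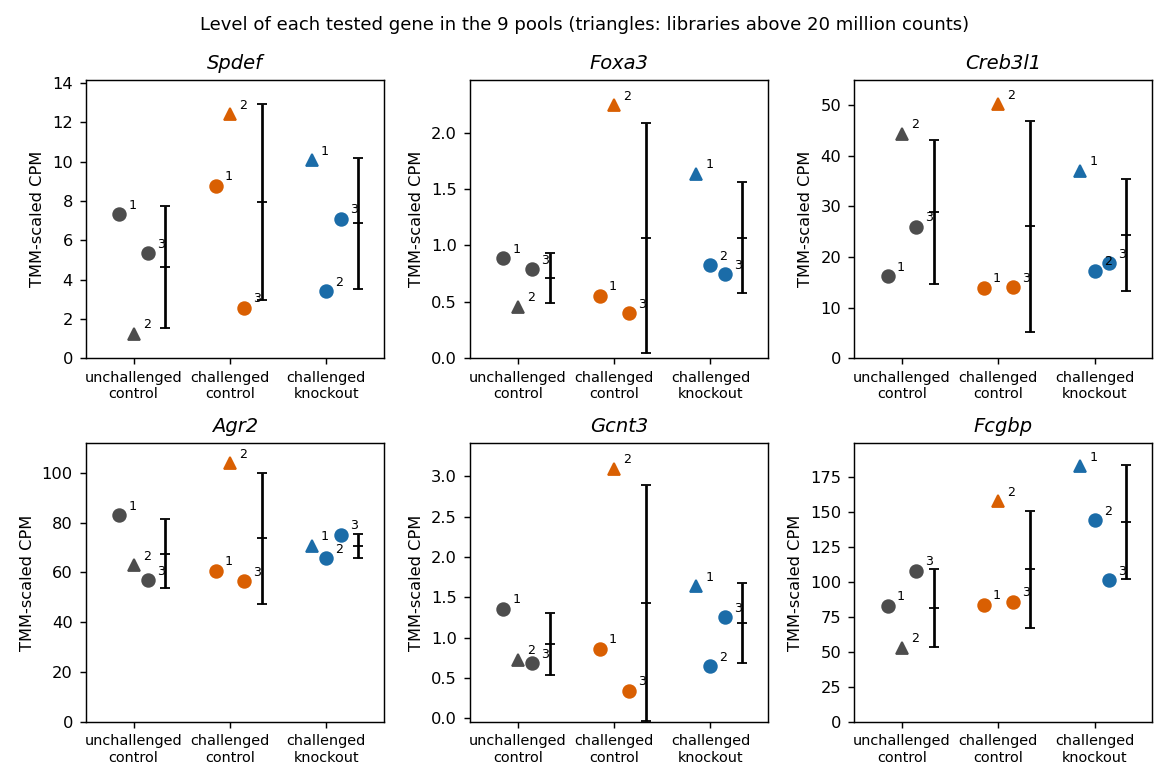
Level of the 6 tested genes in CPM (y axis, TMM-scaled) in the 3 groups (x axis), with 1 point per pool, its replicate number, and the group mean with SD in black; triangles are the 3 deepest libraries. Challenged control 2 was the highest pool for 5 of the 6 genes, and the triangles of Creb3l1 (37.1 to 50.2 CPM) sit above all 6 circles.

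Agr2, the mucin-folding disulfide isomerase, was the steadiest member. It was at 83.0, 62.9 and 56.7 CPM in the unchallenged control pools, 60.7, 104 and 56.4 in the challenged control pools and 70.8, 65.6 and 75.2 in the challenged knockout pools. Only challenged control 2 stood clear of the rest, and the highest pool was 1.84-fold above the lowest. By group, Agr2 averaged 67.5 ± 13.7, 73.6 ± 26.2 and 70.5 ± 4.78 CPM (SD over 3 pools). Challenge gave 0.12 ± 0.24 (SE; adjusted p = 0.921; interval -0.41 to 0.66). Genotype gave -0.06 ± 0.24 (SE; adjusted p = 0.952; interval -0.60 to 0.47). These were the narrowest intervals among the 6 genes, and they leave out a 2-fold change in either direction.

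Gcnt3, which adds branches to mucin-type O-glycans, was low and followed Agr2 across pools at a larger amplitude. Its level was 1.36, 0.727 and 0.682 CPM in the unchallenged control pools, 0.866, 3.09 and 0.342 in the challenged control pools and 1.63, 0.649 and 1.26 in the challenged knockout pools. The challenged controls held both the highest and the lowest of all 9 pools, which were 9.04-fold apart on 69 and 6 counts. By group, Gcnt3 averaged 0.923 ± 0.379, 1.43 ± 1.46 and 1.18 ± 0.498 CPM (SD over 3 pools). Challenge gave 0.65 ± 0.74 (SE; adjusted p = 0.834; interval -0.99 to 2.30). Genotype gave -0.29 ± 0.73 (SE; adjusted p = 0.921; interval -1.92 to 1.35).

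Fcgbp, a large mucus protein that binds to mucins, was the member with the largest difference between the unchallenged controls and the challenged knockouts. It was at 83.0, 52.9 and 108 CPM in the unchallenged control pools and 83.7, 157 and 85.9 in the challenged control pools. In the challenged knockout pools it was at 182, 144 and 101 CPM, so knockout 3 lay below unchallenged control 3. By group, Fcgbp averaged 81.3 ± 27.6, 109 ± 41.9 and 143 ± 40.6 CPM (SD over 3 pools). Between challenged knockouts and unchallenged controls the log2 fold change was 0.81 (SE 0.33, 95% interval 0.07 to 1.56), with an unadjusted p of 0.0358 and an adjusted p of 0.999. At that unadjusted level 2.9% of all genes tested passed. Challenge gave 0.42 ± 0.33 (SE; adjusted p = 0.708) and genotype 0.39 ± 0.33 (SE; adjusted p = 0.767). Without the 3 deepest libraries the difference between knockouts and unchallenged controls was 0.36 (unadjusted p = 0.199). Fcgbp encodes repeated domains and has a close paralogue in mice, Fcgbpl1. That gene was on the list of further goblet cell genes below but was not among the 17 tested. Reads of these genes may be split, which was not tested.

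Tff1, a trefoil peptide of the stomach lining and of human conjunctival goblet cells, was at the floor in this tissue. It had 1 count in unchallenged control 1, 1 and 2 counts in challenged controls 1 and 3, 3 counts in challenged knockout 1 and 0 in the other 5 libraries. A count of 0 allows up to 0.115 to 0.177 CPM in those 5 libraries, taking 3 counts as the limit, for counting error only. No fold change is given.

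All 6 tested genes were above the median of the 9 pools in challenged control 2 and challenged knockout 1, and 4 of them were in unchallenged control 1. In each of the other 6 pools 0 to 2 were. Challenged control 2 was the highest pool for 5 of the 6 tested genes and the next highest for the sixth, Fcgbp. Challenged knockout 1 was among the highest pair of pools for 4. Challenged control 3, of the same group as the highest pool, was the lowest for 3 genes and above the median for 0 of 6. Muc5ac, the gel mucin that defines conjunctival goblet cells, was highest in challenged control 2 (889 CPM), challenged knockout 1 (834) and unchallenged control 1 (529). It was at 367 CPM in challenged control 1, 76.5 in unchallenged control 2 and 46.8 in challenged control 3, with 112 to 146 in the other 3 pools. Not every member kept this order. Unchallenged control 1 ranked 2 to 4 of 9 for Agr2, Foxa3, Gcnt3 and Spdef, but 7 for Creb3l1 and 8 for Fcgbp. Challenged control 1 ranked 3 for Spdef and 5 for Gcnt3, but 7 for Foxa3, Agr2 and Fcgbp and 9 for Creb3l1.

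**Figure D2:**
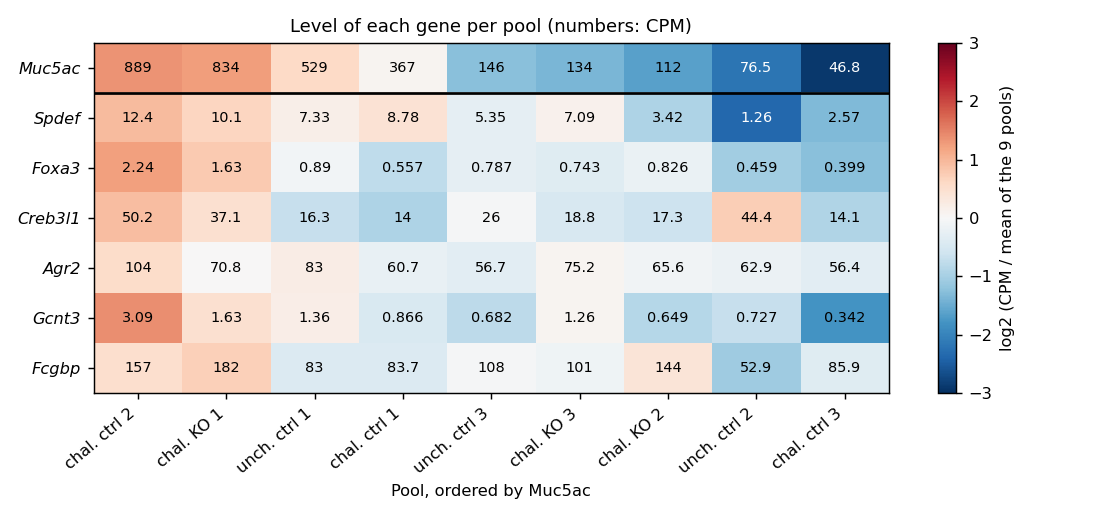
Level of Muc5ac and of the 6 tested genes (rows, with CPM printed in the cells) in the 9 pools (columns, ordered by Muc5ac), coloured by log2 of the level over the gene's mean in all 9 pools. The left columns, challenged control 2 and challenged knockout 1, were above the median of the 9 pools for all 6 tested genes, while Creb3l1 was also high in unchallenged control 2 (44.4 CPM), where Spdef was lowest (1.26 CPM).

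The pairwise likeness between members is given as a description, on log2 of CPM plus 0.5 over 9 libraries that share groups and depth. Among the 15 pairs, Pearson's r was 0.06 to 0.92 and Spearman's rho was 0.17 to 0.85. Agr2 and Gcnt3 were the most alike (r = 0.92, and 0.87 over the 6 shallower libraries), followed by Foxa3 and Gcnt3 (0.89, and 0.67). The 5 pairs with Creb3l1 had r of 0.06 to 0.60, and Spdef and Creb3l1 were the least alike (0.06). Over the 6 shallower libraries, 11 of the 15 pairs had a positive r and 4 a negative r, with a range of -0.39 to 0.87. Spdef and Fcgbp were at 0.65 over all 9 libraries and at -0.39 over those 6, so that the likeness did not hold without the deep libraries.

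The genes most like each member were taken from all genes with a mean of at least 1 CPM. For Spdef they were Lman1l (r = 0.98 over 9 libraries), a lectin-like cargo receptor gene, Avil (0.95), an actin-binding protein gene, and Kcne3 (0.95), a potassium channel subunit gene. Lman1l was at 3.82, 0.651 and 3.31 CPM in the unchallenged control pools, 4.45, 4.62 and 1.31 in the challenged control pools and 5.49, 1.77 and 3.49 in the challenged knockout pools. It was low in the same 3 pools as Spdef. Muc5ac ranked 12 of 14163 genes for Spdef, with r = 0.87. For Foxa3 the nearest were Muc5b (0.92), another gel mucin, Slx4ip (0.91) and Fam3b (0.90). For Gcnt3 they were Fam3b (0.95), Agr2 (0.92) and Hsbp1l1 (0.90). For Agr2 they were Tmem150cos (0.93), Gcnt3 (0.92) and 2810001G20Rik (0.90). Tmem150cos is named as an opposite-strand gene, and without strand its reads cannot be told from those of its partner. For Fcgbp the highest values were lower: Fmn1 (0.84), Prom1 (0.84) and Capn13 (0.84).

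Creb3l1 had other neighbours. They were Galnt10 (r = 0.98), which starts O-glycan chains, Srr (0.97), a serine racemase gene, and Suox (0.96), a sulfite oxidase gene, while Muc5ac ranked 3363 of 14163 (r = 0.34). Galnt10 was at 21.9, 37.0 and 30.9 CPM in the unchallenged control pools, 20.6, 42.0 and 23.2 in the challenged control pools and 34.7, 25.5 and 25.2 in the challenged knockout pools. Its 3 highest values were again in the 3 deep libraries.

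**Figure D3:**
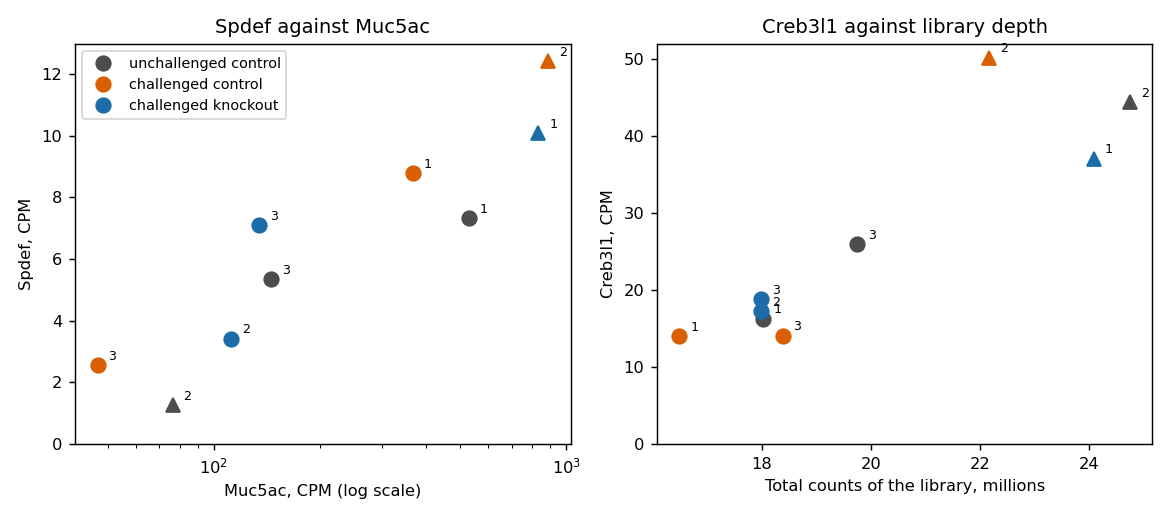
Spdef in CPM against Muc5ac in CPM on a log axis (left), and Creb3l1 in CPM against the total counts of the library, drawn per 1000000 (right), with 1 point per pool coloured by group and numbered by replicate; triangles are the 3 deepest libraries. Spdef was highest where Muc5ac was highest (12.4 and 889 CPM in challenged control 2), whereas Creb3l1 was highest in the 3 deepest libraries.

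The first comparison asked whether repeated ovalbumin challenge changed these genes in controls. By edgeR 0 of the 6 tested genes passed, against 0.064% of all genes tested (0 at an unadjusted p under 0.05, against 12.4%; 0 by DESeq2 and 0 with the replicate block). For 0 of the 6 did the 3 challenged controls lie beyond the 3 unchallenged controls, against 15.7% of all genes. The estimates were positive for 5 and negative for 1, with a median log2 fold change of 0.52 (-0.01 over all genes tested). Without challenged control 2 the sign turned for 3 of the 6 genes, Foxa3, Gcnt3 and Agr2. The log2 fold change was then -0.57 for Foxa3, -0.62 for Gcnt3, -0.22 for Agr2 and -1.06 for Creb3l1. It was 0.28 for Spdef and 0.05 for Fcgbp. Challenged control 2 was the highest pool of its group for all 6 genes, so leaving it out lowers the mean of that group. Without challenged control 3 all 6 estimates were positive: 1.20 for Spdef, 1.11 for Gcnt3, 0.99 for Foxa3, 0.57 for Fcgbp, 0.28 for Agr2 and 0.15 for Creb3l1. Over the 6 shallower libraries, with 2 pools in each group, all 6 estimates were negative, from -0.81 for Foxa3 to -0.17 for Spdef, with adjusted p of 0.605 to 0.982.

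The second comparison asked whether loss of lymphatic Vegfr3 changed them under challenge. Again 0 of 6 passed, against 0% of all genes tested (0 at an unadjusted p under 0.05, against 8.49%; 0 by DESeq2 and 0 with the replicate block). For 0 of 6 were the groups apart, against 12.9% of all genes. The estimates were positive for 1 gene, Fcgbp, and negative for 5, with a median of -0.08 (0.00 over all genes tested). Without challenged control 2 all 6 estimates were positive: 1.17 for Foxa3, 0.98 for Gcnt3, 0.80 for Creb3l1, 0.75 for Fcgbp, 0.29 for Spdef and 0.28 for Agr2, with 0 of 6 past the threshold. Without challenged knockout 1, Fcgbp stayed positive (0.17) and the other 5 estimates were negative. They were -0.60 for Gcnt3, -0.59 for Spdef, -0.53 for Creb3l1, -0.46 for Foxa3 and -0.06 for Agr2. Within the 6 shallower libraries the values were 0.72 for Foxa3, 0.68 for Gcnt3, 0.55 for Fcgbp, 0.38 for Creb3l1, 0.28 for Agr2 and -0.09 for Spdef. The deep libraries gave 1 pool per group and so no test of their own.

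**Figure D4:**
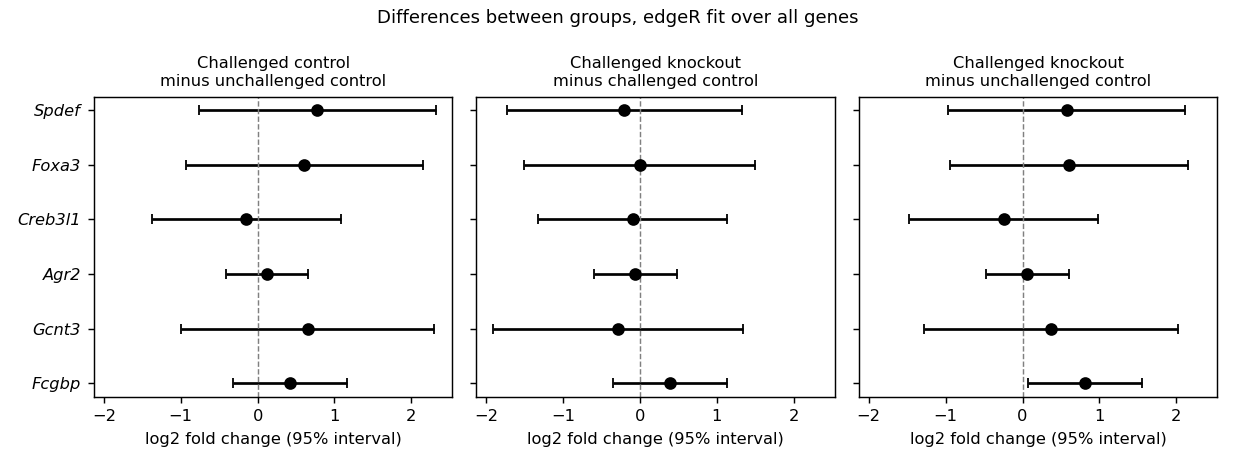
Log2 fold change (x axis) with its 95% interval for the 6 tested genes (rows) in the 3 comparisons (panels), from an edgeR fit over all genes. Of the 18 intervals only that of Fcgbp between challenged knockouts and unchallenged controls (0.07 to 1.56) leaves out 0, before adjustment over all genes.

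**Figure D5:**
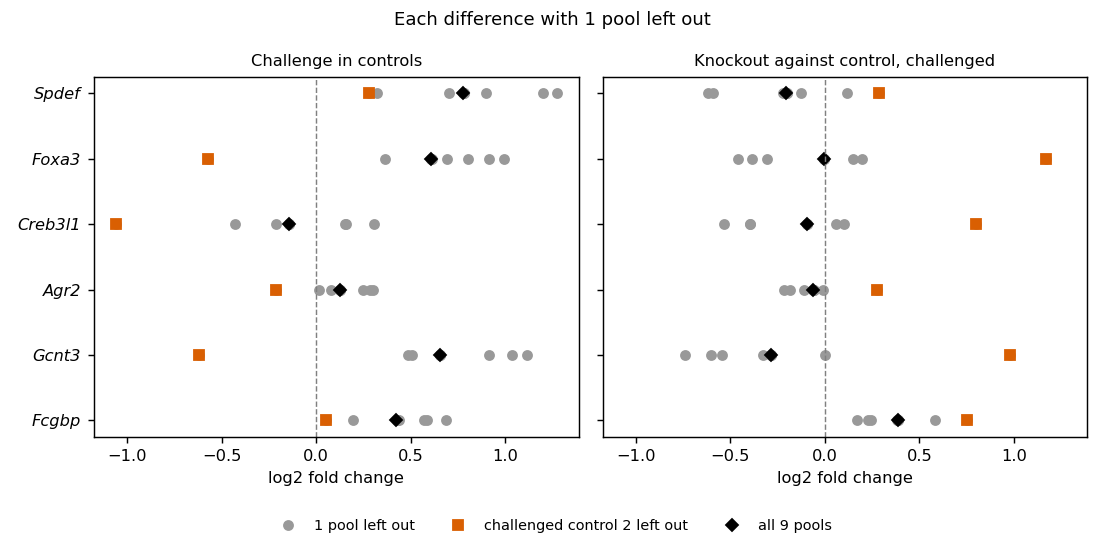
Log2 fold change (x axis) of each gene (rows) with challenge and with genotype: black diamonds for all 9 pools, grey points for fits with 1 pool left out and orange squares for the fit without challenged control 2. The orange squares lie at 1 end of the range for all 6 genes in the genotype panel, from 0.28 for Agr2 to 1.17 for Foxa3. Challenged control 2 was the highest pool of its group for all 6 genes, so leaving it out lowers the mean of that group.

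Between challenged knockouts and unchallenged controls 0 of 6 passed, against 0% of all genes (1 at an unadjusted p under 0.05, Fcgbp, against 2.9%; 0 by DESeq2 and 0 with the block). The groups overlapped for all 6, while 6.59% of all genes had groups apart. The median was 0.47 (0.00 over all genes tested). This comparison shares its pools with the others and mixes challenge with genotype.

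Epithelium and other tissue differed between the pools that held most of these transcripts. Challenged knockout 1 had the lowest summed epithelial markers (8970 CPM) and the highest meibomian gland markers (1512 CPM over 7 genes, against 247 to 421 CPM in the other pools). Muscle markers were at 324 to 889 CPM in challenged controls, 2261 to 3783 in challenged knockouts and 1366 to 5317 in unchallenged controls. T cell markers were at 163 to 345 CPM in challenged controls and 15.3 to 64.5 CPM in the other 2 groups. Of the lacrimal gland list 3 of 10 genes were in the table, and its sum of 130 to 371 CPM was nearly all Aqp5, which is not restricted to that gland. The part of these tissues in the levels of goblet cell genes was not tested. Per 1000 counts of the epithelial list, Spdef was at 1.12 in challenged knockout 1 and 0.968 in challenged control 2, and at 0.118 to 0.790 in the other 7 pools. Fcgbp was at 20.3 in challenged knockout 1, 12.3 in challenged control 2 and 4.92 to 8.29 elsewhere. On this scale too, the groups overlapped for all 6 genes in each comparison.

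Other genes of the goblet cell programme were read from lists, whose counts at an unadjusted p under 0.05 stand against 12.4% of all genes tested with challenge and 8.49% with genotype. The DESeq2 calls in these lists were all with challenge, where DESeq2 called 750 of the 15613 genes that passed the filter. Single calls in a list are therefore not read as a result about the list. With challenge, positive estimates made up 58.8% of the goblet cell list, 66.7% of the regulators, 82.4% of the folding genes, 70.6% of the transport genes and 60% of the O-glycan genes (48.5% of all genes). With genotype these shares were 58.8%, 40%, 44.1%, 32.4% and 33.3% (50.4% of all genes). Of 29 further goblet and mucous cell genes listed, 24 were in the table and 17 were tested. By edgeR 0 passed in any comparison (2 higher and 1 lower with challenge at an unadjusted p under 0.05, and 1 called by DESeq2), and the median log2 fold change was 0.03 with challenge and 0.13 with genotype. Pigr, the receptor that carries IgA through epithelium, averaged 115 ± 32.1, 176 ± 73.4 and 141 ± 58.2 CPM by group (SD over 3 pools). Bace2, a membrane protease, was at 160 ± 43.1, 153 ± 35.3 and 176 ± 32.1 CPM. Ern2, the mucous cell form of the unfolded protein sensor IRE1 and named here after its values were seen, followed Spdef by pool. It was at 2.30, 0.306 and 1.05 CPM in the unchallenged control pools, 1.61, 3.27 and 0.285 in the challenged control pools and 2.92, 1.18 and 1.54 in the challenged knockout pools. Clca1, of the same list and also named after its values were seen, did not follow Spdef. It was highest in challenged control 1 (2.10 CPM, against 1.39 in challenged control 2) and at 0.366 CPM in unchallenged control 1. The gene called by DESeq2 was Scin, an actin-severing protein, with a log2 fold change of -0.67 with challenge (edgeR SE 0.19, adjusted p = 0.167).

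Among 35 regulators of goblet cell formation 30 were tested and 0 passed by edgeR (2 higher and 0 lower with challenge at an unadjusted p under 0.05, and 1 called by DESeq2). Their median was 0.10 with challenge and -0.07 with genotype. Elf3 and Ehf, epithelial ETS factors related to SPDEF, were the most abundant. Elf3 was at 793 ± 92.1, 948 ± 136 and 900 ± 267 CPM and Ehf at 620 ± 80.2, 655 ± 89.2 and 533 ± 101 CPM in the 3 groups. Il4ra, the receptor chain shared by interleukins 4 and 13, was the gene called by DESeq2. Challenged control 1 was at 217 CPM, and the other challenged controls at 44.0 and 43.5. By group it averaged 29.0 ± 5.38, 102 ± 100.1 and 54.7 ± 23.4 CPM (log2 fold change 1.80 with challenge, SE 0.59; adjusted p = 0.229 by edgeR and 0.0309 by DESeq2).

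The 34 tested genes of protein folding and the unfolded protein response, the pathway of AGR2 and CREB3L1, had 0 called by edgeR (1 higher with challenge at an unadjusted p under 0.05; 0 by DESeq2). Their median was 0.16 with challenge and -0.02 with genotype (-0.01 and 0.00 over all genes tested). P4hb, a disulfide isomerase, was at 635 ± 114, 670 ± 97.1 and 719 ± 128 CPM, and Pdia3, a folding enzyme of glycoproteins, at 598 ± 36.0, 736 ± 74.8 and 681 ± 105 CPM. Of 34 transport and granule release genes 0 passed by edgeR (2 higher with challenge at an unadjusted p under 0.05; 0 by DESeq2), with a median of 0.10 with challenge and -0.11 with genotype. Rab3d, a granule GTPase, was at 406 ± 133, 407 ± 82.1 and 440 ± 118 CPM, and Copa, a COPI coat subunit, at 294 ± 16.2, 315 ± 26.4 and 284 ± 33.3 CPM.

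Of 38 enzymes of O-glycan synthesis, the pathway of GCNT3, 30 were tested and 0 passed by edgeR (4 higher and 0 lower with challenge at an unadjusted p under 0.05; 1 by DESeq2), with a median of 0.09 with challenge and -0.09 with genotype. With genotype 1 was higher and 5 were lower at an unadjusted p under 0.05, against 8.49% of all genes in either direction. St6galnac1, which caps mucin sugars with sialic acid, was at 312 ± 58.2, 316 ± 51.0 and 335 ± 33.6 CPM, and B4galt1, a galactosyltransferase, at 220 ± 38.0, 234 ± 11.9 and 219 ± 23.5 CPM. B3gnt7, which extends sugar chains and was named after its values were seen, was at 24.1, 20.8 and 21.2 CPM in the unchallenged control pools. It was at 64.8, 48.8 and 68.4 CPM in the challenged control pools and 28.8, 46.2 and 29.2 CPM in the challenged knockout pools. The 3 groups did not overlap, with challenged knockouts between the others; groups were apart for 15.7% of all genes with challenge and 12.9% with genotype. The log2 fold change of B3gnt7 with challenge was 1.46 (SE 0.22, adjusted p = 0.0676, and 0.0302 with the replicate block; 1.83e-06 by DESeq2). With genotype it was -0.80 (SE 0.22, adjusted p = 0.364). C1galt1, the enzyme that adds the first galactose, is named here for its value with the replicate block. It was at 45.7 ± 11.5, 77.0 ± 32.2 and 41.6 ± 10.8 CPM in the 3 groups. Its log2 fold change with challenge was 0.75 (SE 0.31, adjusted p = 0.347 by edgeR, and 0.0414 with the replicate block). B3gnt7 did not follow the members by pool: it was lower in challenged control 2, the highest pool of 5 members, than in both other challenged controls.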

How the data were processed

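Whole-number raw counts per gene were deposited by the authors in 1 table. HISAT2, Bowtie2, DESeq2 and mm39 appear in the submitters' processing notes without roles or versions; the counting program, annotation and strand setting were not given in the sources used here. Genes were filtered with filterByExpr (minimum count 10), scaled with TMM and fitted in edgeR 4.0.16 (R 4.3.3) with a two-sided quasi-likelihood test over all 9 libraries, and p-values were adjusted by Benjamini-Hochberg over 15613 genes. SE is the log2 fold change over the square root of F. DESeq2 1.42.0, other scalings, no filter, blocks and left-out pools were alternatives. The code was tested on simulated data. Exon lengths came from merged GENCODE exons (GRCm38).

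The members and lists were chosen with earlier results of these data known. Genes named in the text were the members, Muc5ac, Flt4, the 3 genes most like each member, and for each list those past the threshold or else the 2 most abundant; others are marked where they appear. Each library pools 3 mice, and nothing says that pools of a group came from separate litters or days, so p-values measure only the spread between pools. For pairing by replicate number, deviations from group means were correlated across 14164 genes. Between the control groups r was 0.287 to 0.552 (all 3 above 0.1), so these were taken as paired, from the data and not from the labels. Between challenged controls and knockouts r was -0.187 to 0.369, and these were not. The reported fit used no pairing in any comparison, so its challenge SEs and p-values ignore that of the control groups. Whether shared depth or tissue gave these correlations was not tested. With the replicate block, challenge gave 0.96 (SE 0.73) for Spdef, 0.51 (0.77) for Gcnt3, 0.45 (0.73) for Foxa3 and 0.40 (0.36) for Fcgbp. It gave 0.10 (SE 0.23) for Agr2 and -0.27 (0.49) for Creb3l1. The adjusted p by edgeR ranged from 0.560 for Spdef to 0.863 for Agr2.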

Additional observations from a re-analysis of the deposited data

How the results depend on the processing

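None of the 6 tested genes passed an adjusted p of 0.05 in any comparison under any alternative run, but directions turned. Over all alternatives, left-out pools included, the sign of the estimates held 96 times and turned 12 times with challenge. It held 85 times and turned 23 times with genotype, and held 102 times and turned 6 times between knockouts and unchallenged controls. Without the 3 deepest libraries (chosen after seeing the data), challenge gave -0.17 for Spdef, -0.81 for Foxa3, -0.26 for Agr2, -0.76 for Gcnt3 and -0.18 for Fcgbp. Genotype then gave 0.72 for Foxa3, 0.38 for Creb3l1, 0.28 for Agr2 and 0.68 for Gcnt3, and knockouts against unchallenged controls -0.26 for Spdef, -0.089 for Foxa3 and -0.085 for Gcnt3. A block for those libraries turned the genotype values of Foxa3 (0.15) and Creb3l1 (0.075). Scaling to the epithelial list, which moved the median of all genes by -0.15 with challenge, gave -0.044 for Agr2 with challenge, -0.066 for Agr2 between knockouts and unchallenged controls, and 0.15 for Foxa3 and 0.081 for Creb3l1 with genotype. Upper-quartile scaling gave 0.015 and no low-count filter 0.0039 for Foxa3 with genotype. As the reported value was -0.0043 (SE 0.67), these changes of sign are small beside its SE. With the replicate number as a block, genotype gave 0.094 for Foxa3 and 0.20 for Creb3l1, and no other direction of a member turned with the block. The cause of these changes was not tested.

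Leaving out 1 pool at a time, challenge ranged from -0.57 to 0.99 for Foxa3, -1.06 to 0.31 for Creb3l1, -0.22 to 0.30 for Agr2 and -0.62 to 1.11 for Gcnt3. Genotype ranged from -0.62 to 0.29 for Spdef, -0.46 to 1.17 for Foxa3, -0.53 to 0.80 for Creb3l1, -0.22 to 0.28 for Agr2 and -0.74 to 0.98 for Gcnt3. Between knockouts and unchallenged controls the range was -0.68 to 0.21 for Creb3l1 and -0.043 to 0.24 for Agr2. The other estimates stayed positive in all 9 fits. With challenge these were Spdef (0.28 to 1.27) and Fcgbp (0.05 to 0.69), and with genotype Fcgbp (0.17 to 0.75). Between knockouts and unchallenged controls they were Spdef (0.12 to 1.07), Foxa3 (0.15 to 0.81), Gcnt3 (0.06 to 0.75) and Fcgbp (0.58 to 1.08). The lowest challenge value and the highest genotype value were those without challenged control 2 for all 6 genes. That pool was the highest challenged control for each of them, so leaving it out lowers the mean of its group. With challenge Creb3l1 turned positive in 3 of the 9 fits: without unchallenged control 2 (0.31), challenged control 1 (0.16) or challenged control 3 (0.15).

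Genes called with challenge, 10 as reported, were 20 with no filter, 750 by DESeq2, 267 with the replicate block, 5 with epithelial scaling, 1 from the 2 groups alone, 103 with the block for deep libraries, 0 without those libraries and 0 to 121 with 1 pool left out. With genotype, 0 as reported, they were 231 by DESeq2 and 22 with the replicate block. Between knockouts and unchallenged controls, 0 as reported, DESeq2 called 14. Depth limits Foxa3, Gcnt3 and Tff1 most, at 7 to 50, 6 to 69 and 0 to 3 counts in a library.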
